A study of Mus musculus with 20 samples.

Results

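Mitochondrial beta-oxidation was followed through the 10 genes of its core enzymes in the livers of 20 mouse fetuses. They are the acyl-CoA dehydrogenases Acadvl, Acadl, Acadm and Acads, the genes of the trifunctional protein Hadha and Hadhb, the 3-hydroxyacyl-CoA dehydrogenase Hadh, and Etfa, Etfb and Etfdh of the electron transfer flavoprotein route. They were taken as a named list, and all 10 were found among the 45802 gene entries of the table and among the 11807 that were tested. Every liver came from a C57BL/6 fetus at stage E17.5 whose dam had been fasted for 24 h, with 4 fetuses in each group, of which 2 were female and 2 male.

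The first control group, HetDam_HetFetus, held Ppar-alpha heterozygous fetuses of Ppar-alpha heterozygous dams. KODam_HetFetus held heterozygous fetuses of knockout dams, and KODam_KOFetus held knockout fetuses of knockout dams. No group in the Ppara arm had an intact pair of Ppara alleles in its dams or fetuses, so the reference there is a heterozygote. In the Cpt2 arm all fetuses were Cpt2f/f, that is, with both Cpt2 alleles flanked by sites for Cre recombinase. FloxDam_FloxFetus had Cpt2f/f dams, and Cpt2LKODam_FloxFetus had dams labelled Cpt2f/f; Albumin-Cre, in which the albumin promoter drives Cre in hepatocytes, so the deletion was in the maternal liver. The sample titles call the floxed fetuses wild type. Shared numbers in the sample descriptions mark presumed littermates: replicates 1 and 2 of KODam_HetFetus, the same replicates of KODam_KOFetus, and FloxDam_FloxFetus replicates 3 and 4. No presumed litter held fetuses of more than 1 group, so no comparison could be made within a litter.

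Beta-oxidation shortens fatty acids in the mitochondrial matrix by a repeated cycle of dehydrogenation, hydration, a further dehydrogenation and thiolysis. The acyl-CoA dehydrogenases differ in the chain length they prefer, from very long (Acadvl) through long (Acadl) and medium (Acadm) to short (Acads), and they pass their electrons to the flavoprotein made of the Etfa and Etfb subunits, from which Etfdh, the flavoprotein-ubiquinone oxidoreductase, hands them to the respiratory chain. Hadha and Hadhb are the subunits of the membrane-bound trifunctional protein, which acts on long chains, and Hadh acts on medium and short chains in the matrix. PPAR-alpha, the product of Ppara, is a fatty acid-activated nuclear receptor that binds DNA with RXR and is known to switch on many genes of fatty acid oxidation in the fasted adult liver. Cpt2, carnitine palmitoyltransferase 2, completes the entry of long-chain fatty acids into the matrix.

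The 250 bases before the annotated starts are shown for Acadvl and Etfdh, which fell most among the members with the fetal genotype, for Acadl, which rose with the maternal genotype, and for Hadhb, which shares its upstream region with Hadha. They come from RefSeq on GRCm38.p6, in which all 10 genes were matched. Capitals mark AGGTCA, the hexamer that nuclear receptors bind, in Acadvl (chr11:70015429-70015678, minus strand), the NRF1 palindrome, GCGC on either side of 2 free bases, in Etfdh (chr3:79628768-79629017, minus strand), and the GC box GGGCGG or its complement in Acadl (chr1:66863310-66863559, minus strand) and Hadhb (chr5:30155003-30155252, plus strand).
Acadvl: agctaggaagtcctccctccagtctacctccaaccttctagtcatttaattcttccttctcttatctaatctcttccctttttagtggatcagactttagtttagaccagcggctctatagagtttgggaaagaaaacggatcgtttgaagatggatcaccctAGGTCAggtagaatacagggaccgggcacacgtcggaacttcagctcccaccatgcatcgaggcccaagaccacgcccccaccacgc
Etfdh: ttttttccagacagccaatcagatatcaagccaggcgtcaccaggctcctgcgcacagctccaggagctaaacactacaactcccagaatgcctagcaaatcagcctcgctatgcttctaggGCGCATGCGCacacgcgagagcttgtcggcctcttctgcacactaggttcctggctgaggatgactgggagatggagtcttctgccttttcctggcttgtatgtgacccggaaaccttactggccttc
Acadl: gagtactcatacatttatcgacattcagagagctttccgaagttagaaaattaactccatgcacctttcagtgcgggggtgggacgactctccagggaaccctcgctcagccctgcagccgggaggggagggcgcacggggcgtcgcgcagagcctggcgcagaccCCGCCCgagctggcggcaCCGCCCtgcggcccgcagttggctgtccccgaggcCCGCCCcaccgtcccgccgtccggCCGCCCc
Hadhb: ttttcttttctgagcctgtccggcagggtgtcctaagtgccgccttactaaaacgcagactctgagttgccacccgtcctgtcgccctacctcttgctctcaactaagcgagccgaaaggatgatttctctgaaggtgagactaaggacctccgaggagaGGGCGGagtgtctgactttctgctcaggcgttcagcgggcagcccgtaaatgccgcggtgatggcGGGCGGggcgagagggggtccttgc

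The letters were searched on both strands of the upstream 250 bases of the 10 members and of 32851 promoters in all. The exact PPAR direct repeat, AGGTCA followed by 1 free base and AGGTCA again, was in 0 of 10 members and in 0.0335% of all promoters, and with up to 2 mismatches it was in Etfa alone, against 3.24% of all. The hexamer AGGTCA, part of that repeat, was in Acadvl and Acadm, against 14.0% of all promoters. The GC box was in 5 members (Acadl, Acads, Hadha, Hadhb and Hadh) and in 32.7% of promoters, CCAAT in 4 (Hadh, Etfa, Etfb and Etfdh) and in 33.9%, and the NRF1 palindrome in Etfb and Etfdh and in 4.98%. TNAAGGTCA, the extended hexamer bound by estrogen-related receptors, was in 0 members and in 1.138% of promoters. Acadl held 4 GC boxes within 84 bases of its start. Hadha and Hadhb lie head to head on chromosome 5, with 272 bases between their starts.

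Values are log2 expression after quantile normalization by the authors. What was measured before the logarithm is not stated and depth is unknown, so levels are not compared between genes. Ppara itself ranged from 1.87 to 2.48 in KODam_KOFetus, from 1.81 to 3.22 in KODam_HetFetus and from 2.86 to 3.47 in HetDam_HetFetus. KODam_KOFetus minus HetDam_HetFetus gave a called log2 difference of -0.87 ± 0.26 (SE, adjusted p = 0.0237), and KODam_KOFetus minus KODam_HetFetus gave none (-0.30 ± 0.26, adjusted p = 0.682). A value over the whole gene does not show which part of an allele was deleted. Hepatocyte markers were present in every library, with 12 of 12 tested. The 8 skeletal muscle markers, of which 4 were tested, summed on the linear scale to 167 in HetDam_HetFetus replicate 4 and 230 in KODam_KOFetus replicate 2, against 9.08 to 20.4 in the other libraries. The 6 exocrine pancreas markers, of which 2 were tested, summed to 261 in Cpt2LKODam_FloxFetus replicate 2 and to at most 32.0 in the others. Myog, Prss2 and Pnlip among these markers had no value in many libraries. Without these 3 libraries the members called numbered 6 in the fetal comparison described next, 1 in the maternal one, 8 in that of doubly knockout with control livers, and 0 in the others. With all libraries, 0.822%, 39.0% and 24.7% of all genes were called in the fetal, maternal and doubly knockout comparisons. The shares without these 3 libraries are not given here.

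**Figure D1:**
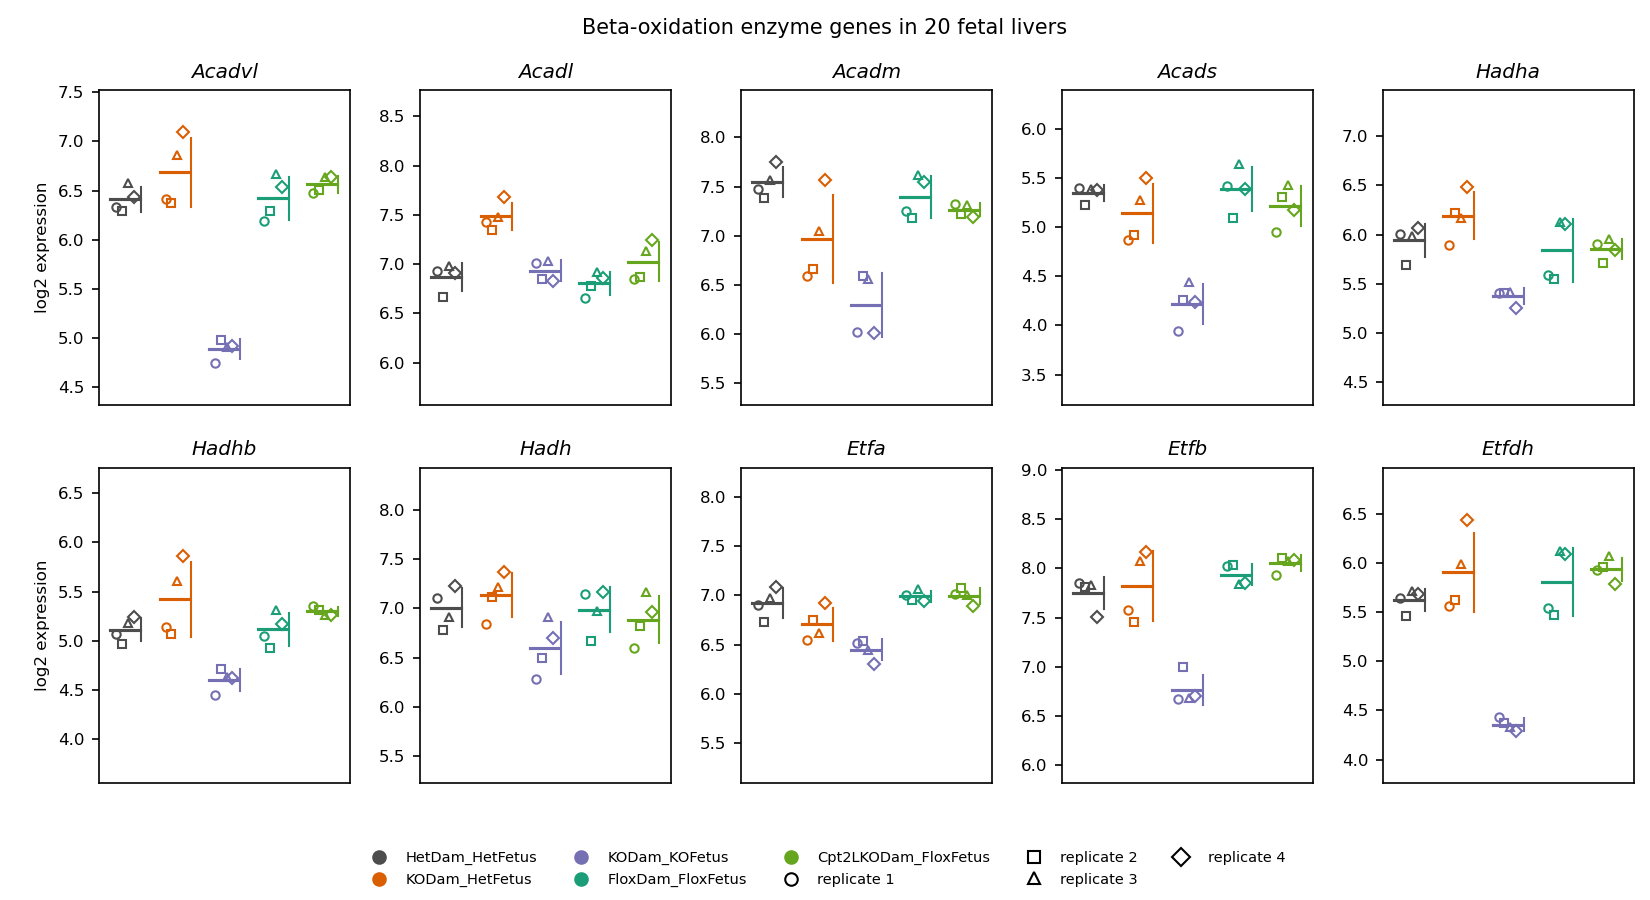
Log2 expression of the 10 genes in each of the 20 fetal livers; the symbols are replicates, the horizontal bars group means and the vertical lines the mean plus and minus the SD (n = 4), on axes of equal span. The KODam_KOFetus livers lie below those of every other group for Acadvl, Etfdh, Etfb, Acads, Hadha, Hadhb and Etfa, whereas Acadl is highest in KODam_HetFetus.

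The effect of the fetal Ppara genotype was read from KODam_KOFetus minus KODam_HetFetus, in which every dam was a knockout. Of the 10 members 7 fell and 0 rose, where 0.822% of the 11805 genes tested were called 0.0254% higher and 0.796% lower. The falls were in Acadvl (log2 difference -1.79), Etfdh (-1.55), Etfb (-1.05), Acads (-0.92), Hadha (-0.82), Hadhb (-0.82) and Acadl (-0.55). Acadm, Hadh and Etfa were at -0.67, -0.54 and -0.26 and were not called. The median over the members was -0.82, against -0.01 over all genes tested. In 8 of the 10, the 7 called and Etfa, the 4 knockout livers lay below all 4 heterozygous ones, as in 4.04% of all genes tested. In whole liver, fewer cells of a type and less RNA per cell cannot be told apart. The 12 hepatocyte markers had a median difference of -0.01, and 0 of them were called. Fitted on the 8 libraries of these groups alone, 4 members fell (Acadvl, Etfdh, Etfb and Hadha), where 63 genes were called, 3 higher and 60 lower. Without the 3 libraries with markers of another tissue 6 members fell, Acadl being lost (limma adjusted p = 0.0687).

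The effect of the maternal Ppara genotype was read from KODam_HetFetus minus HetDam_HetFetus, in which every fetus was heterozygous. Acadl rose (0.61 ± 0.11, SE), Acadm fell (-0.58 ± 0.18), and the other 8 members, at -0.21 to 0.31, were not called. That is 2 of 10, where 39.0% of 11800 genes were called, 26.4% higher and 12.6% lower. All tested genes had a median of 0.14 in this comparison and -0.15 between the control groups, and of 0.02 in the maternal comparison after trimmed-mean scaling, under which 49.9% of called genes were higher in place of 67.8%. The member calls under that scaling were 1 higher (Acadl) and 3 lower (Acadm, Acads and Etfa). The share of all genes called under it is not given here.

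In the maternal comparison the presumed litters of KODam_HetFetus lay apart, which was not tested. Replicates 3 and 4 were both above the littermates 1 and 2 for 8 of the 10 members, all but Hadha and Etfa. The pair's mean was below that of HetDam_HetFetus for 8 members, and the mean of the other fetuses was above it for 8. How many of all tested genes did the same was not computed, so these counts only describe the members and do not set them apart. Left without the pair, KODam_HetFetus held only replicates 3 and 4, and 5 members rose: Acadl (0.71), Hadhb (0.62), Etfdh (0.59), Acadvl (0.57) and Etfb (0.37). Acadm was then at -0.24 and not called (adjusted p = 0.373). In the same fit 2322 genes were called higher and 523 lower, against 3117 and 1483 of 11800 with all libraries.

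When dam and fetus were both knockouts (KODam_KOFetus minus HetDam_HetFetus), 8 members fell and 0 rose, where 24.7% of 11801 genes were called and 7.31% were called lower. The falls ran from -1.52 in Acadvl to -0.47 in Etfa. Hadh was at -0.41 (adjusted p = 0.0643) and Acadl at 0.06 (adjusted p = 0.711). This comparison shares its libraries with the previous ones and is their sum. Hadh was called lower under trimmed-mean scaling (-0.53, adjusted p = 0.0114) and under quantile normalization of the tested genes (-0.45, adjusted p = 0.0315).

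**Figure D2:**
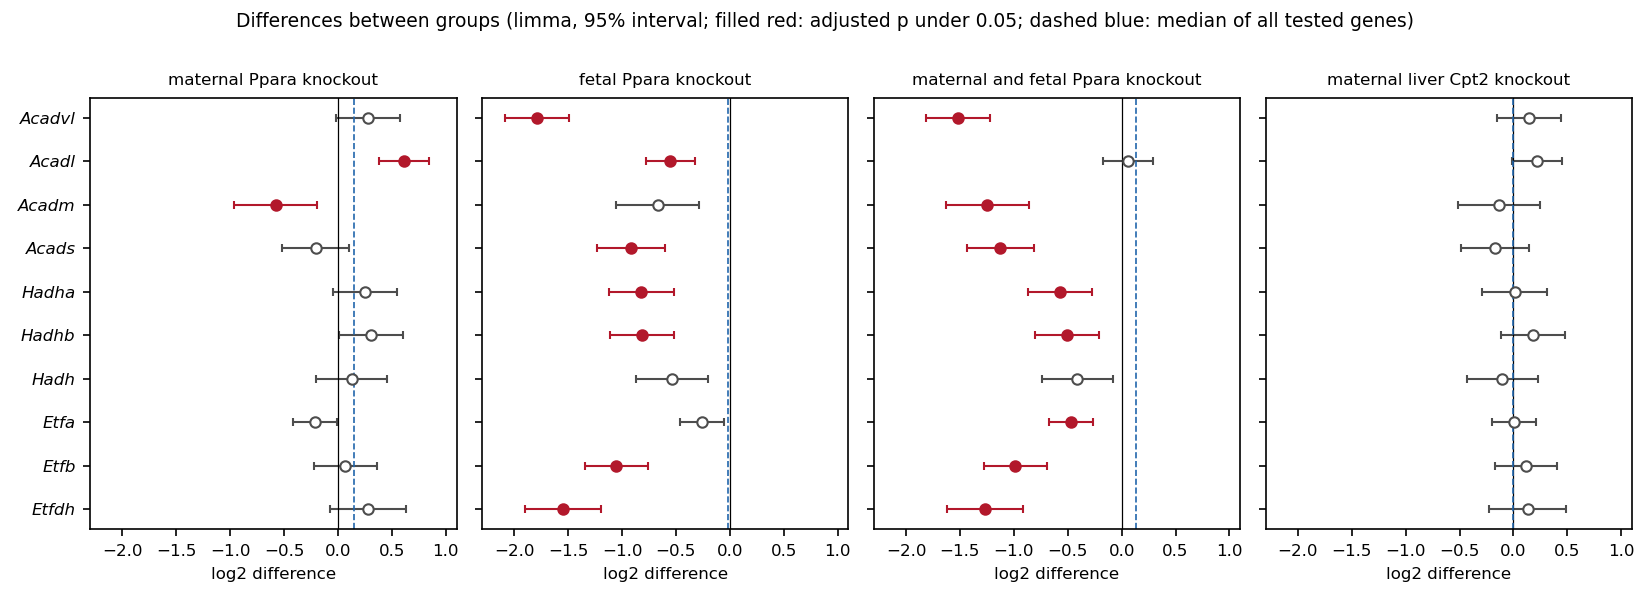
Log2 differences of the 10 genes in 4 comparisons, with 95% intervals from limma; filled red points had an adjusted p under 0.05 and the dashed blue line is the median of all tested genes. All 10 genes lie below 0 for the fetal knockout, Acadl and Acadm lie on opposite sides for the maternal knockout, and every interval spans 0 for the maternal liver Cpt2 knockout.

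Acadvl encodes the inner-membrane dehydrogenase for very long chains. Its log2 values in replicates 1 to 4 were 6.33, 6.29, 6.58 and 6.43 in HetDam_HetFetus, 6.41, 6.37, 6.86 and 7.09 in KODam_HetFetus and 4.75, 4.98, 4.91 and 4.92 in KODam_KOFetus. The knockout fetuses were below all others by more than 1 log2 unit, and the spread was widest in KODam_HetFetus (SD 0.35, against 0.10 in KODam_KOFetus). The knockout fetuses had 0.289 times the level of heterozygous fetuses of knockout dams (-1.79 ± 0.14, SE, adjusted p = 1.95e-07). Acadvl was sixth among 11805 genes by p in that comparison. Its promoter, printed above, holds the hexamer 87 to 82 bases before the start. In the GENCODE annotation 42.9% of its exon bases lie opposite exons of Dvl2, a Wnt signalling gene, and whether strand was used in counting is not given in the sources used here. In RefSeq the genes do not overlap, with Dvl2 reaching to 70010109 and Acadvl lying from 70010183 upward on chromosome 11. Dvl2 was at 0.34 ± 0.14 in the fetal comparison (adjusted p = 0.406).

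Acadl encodes the long-chain dehydrogenase. Its log2 values were 6.93, 6.66, 6.98 and 6.91 in HetDam_HetFetus, 7.43, 7.35, 7.48 and 7.68 in KODam_HetFetus and 7.01, 6.85, 7.04 and 6.83 in KODam_KOFetus. The KODam_HetFetus livers stood above both of the other groups without overlap, and those groups overlapped each other. Acadl was 1.53 times as high in heterozygous fetuses of knockout dams as in the controls (adjusted p = 5.21e-04), and it was called higher in all 33 alternative settings. It fell by 0.55 ± 0.11 in the fetal comparison (adjusted p = 0.0114). That call was lost without KODam_HetFetus replicate 4 (adjusted p = 0.0669) and without KODam_KOFetus replicate 4 (adjusted p = 0.0524). The 95% interval of its difference between doubly knockout and control livers ran from -0.17 to 0.29. Of the promoters printed above, that of Acadl had the highest GC content, 68.0%, against a median of 52.4% over all promoters.

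Acadm encodes the medium-chain dehydrogenase. Its log2 values were 7.48, 7.39, 7.57 and 7.75 in HetDam_HetFetus, 6.59, 6.66, 7.05 and 7.57 in KODam_HetFetus and 6.03, 6.59, 6.57 and 6.01 in KODam_KOFetus. KODam_HetFetus spanned nearly 1 log2 unit, with its littermates low and replicate 4 within the range of the controls. The fall of 0.58 with the maternal genotype had an adjusted p of 0.0185, which became 0.0547 without HetDam_HetFetus replicate 4, 0.0754 and 0.0637 without KODam_HetFetus replicates 1 and 2, and 0.0617 with litter as a random block. Between the doubly knockout and control livers Acadm fell by 1.25 ± 0.18 (adjusted p = 3.08e-04), with no overlap. The fetal comparison alone gave -0.67 (adjusted p = 0.141), and -1.01 (adjusted p = 0.00827) without the littermate pair.

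Acads encodes the short-chain dehydrogenase. Its log2 values were 5.40, 5.22, 5.39 and 5.38 in HetDam_HetFetus, 4.86, 4.92, 5.28 and 5.49 in KODam_HetFetus and 3.95, 4.26, 4.44 and 4.23 in KODam_KOFetus. Knockout fetuses had 0.529 times the level of heterozygous fetuses of knockout dams (-0.92 ± 0.15, adjusted p = 0.00152) and 0.458 times that of the controls. With the maternal genotype Acads was at -0.21 ± 0.15 (adjusted p = 0.278).

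Hadha encodes the trifunctional subunit with hydratase and dehydrogenase activity, and Hadhb the one with thiolase activity. Hadha was at 6.01, 5.70, 5.99 and 6.07 in HetDam_HetFetus, 5.89, 6.22, 6.17 and 6.49 in KODam_HetFetus and 5.41, 5.41, 5.42 and 5.25 in KODam_KOFetus. Hadhb was at 5.07, 4.97, 5.18 and 5.24 in HetDam_HetFetus, 5.14, 5.06, 5.61 and 5.86 in KODam_HetFetus and 4.45, 4.71, 4.64 and 4.62 in KODam_KOFetus. For both genes the 4 knockout livers lay below all 8 other livers of the Ppara arm. In the fetal comparison Hadha fell to 0.566 and Hadhb to 0.568 times the level of heterozygous fetuses (adjusted p = 0.00319 for each). Hadhb lost its call when only the groups compared were fitted (adjusted p = 0.127), and Hadha kept it in all 33 alternatives. Processed pseudogenes nearly identical to Hadhb, Gm13910 (99.8% over 1428 bases) and Gm9108 (97.6% over 1426 bases), were in the table with log2 values of at most -0.28 and -3.03, below the minimum for testing. Reads shared with them could have been counted for either.

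Hadh, which carries out the second dehydrogenation of shorter chains in the matrix, was at 7.11, 6.78, 6.92 and 7.23 in HetDam_HetFetus, 6.84, 7.11, 7.22 and 7.37 in KODam_HetFetus and 6.29, 6.50, 6.91 and 6.69 in KODam_KOFetus. The last groups overlapped, in replicate 1 of the former and replicate 3 of the latter. Its difference of -0.54 ± 0.16 in the fetal comparison had an adjusted p of 0.192, which ranged from 0.0659 to 0.565 over the alternatives.

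Etfa and Etfb encode the subunits of the electron transfer flavoprotein. Etfa was at 6.90, 6.73, 6.97 and 7.08 in HetDam_HetFetus, 6.54, 6.75, 6.62 and 6.93 in KODam_HetFetus and 6.51, 6.54, 6.44 and 6.31 in KODam_KOFetus. Etfb was at 7.85, 7.81, 7.83 and 7.51 in HetDam_HetFetus, 7.57, 7.46, 8.08 and 8.17 in KODam_HetFetus and 6.67, 6.998, 6.69 and 6.71 in KODam_KOFetus. Etfb thus lay more than 0.4 log2 units lower in every knockout fetus than in any other, while the Etfa groups came within 0.01 of each other. In the fetal comparison Etfb fell to 0.481 times (-1.05 ± 0.14, adjusted p = 2.01e-04), and Etfa was at 0.836 times (-0.26 ± 0.10, adjusted p = 0.364). Etfa fell by 0.47 ± 0.10 between the doubly knockout and control livers (adjusted p = 0.00274). In GENCODE the gene model Gm45233 covers 53.0% of the exon bases of Etfb on the same strand. It has no entry of that name in the table, and how reads in the shared bases were counted is not known.

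Etfdh, the acceptor of electrons from the flavoprotein, was at 5.65, 5.46, 5.71 and 5.68 in HetDam_HetFetus, 5.57, 5.62, 5.99 and 6.44 in KODam_HetFetus and 4.44, 4.37, 4.33 and 4.29 in KODam_KOFetus. The knockout livers, at 4.29 to 4.44, lay more than 1 log2 unit below any other liver of the Ppara arm. Knockout fetuses had 0.342 times the level of heterozygous fetuses of knockout dams (-1.55 ± 0.17, adjusted p = 1.58e-05) and 0.415 times that of the controls (adjusted p = 1.42e-04). Both falls were called in all 33 alternatives.

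Whether members of a complex or of the dehydrogenase series moved apart was read from the difference between their log2 values inside each library, which cancels any factor common to a library. Only the change of such a difference between groups is read, since its size depends on gene length and on the unnamed unit. The 6 differences in 4 comparisons gave 24 exact two-sided permutation tests of 4 against 4 livers, in which the smallest possible p is 0.0286. Presumed littermates were permuted as separate livers, so these p-values take no account of litter. After Benjamini-Hochberg adjustment the smallest was 0.0686, so 0 of 24 were called. With 24 tests, a difference at the smallest possible p could not be called unless many others reached it too. The lack of a call therefore does not show that a difference was absent. In 10 of the 24 the groups did not overlap, which by itself gives the smallest possible p in such a test. How often other pairs of genes do so was not computed, so the count is only a description.

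Hadha minus Hadhb stayed within the replicate spread, at 0.83 ± 0.09 (SD, n = 4) in HetDam_HetFetus, 0.77 ± 0.27 in KODam_HetFetus and 0.77 ± 0.14 in KODam_KOFetus. Etfa minus Etfb was -0.83 ± 0.29, -1.11 ± 0.32 and -0.31 ± 0.14 in the same order. It differed by 0.80 in the fetal comparison, which was not called (exact permutation p = 0.0286, adjusted p = 0.0686). Etfdh minus the mean of Etfa and Etfb was -1.71 ± 0.08, -1.36 ± 0.18 and -2.25 ± 0.11, and all 3 groups were free of overlap. Acadl minus Acadm was -0.67 ± 0.13 in the controls, 0.52 ± 0.32 in KODam_HetFetus and 0.63 ± 0.33 in KODam_KOFetus. It differed by 1.19 in the maternal comparison and by 0.12 in the fetal one (exact permutation p = 0.0286 and 0.629), and neither was called. Acadvl minus Acadm was -1.136 ± 0.14 in HetDam_HetFetus, -0.28 ± 0.14 in KODam_HetFetus and -1.41 ± 0.27 in KODam_KOFetus. In the littermates and in the other KODam_HetFetus livers alike, Acadl minus Acadm, at 0.84, 0.68, 0.43 and 0.11, was above each of the 4 control values, from -0.84 to -0.55.

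**Figure D3:**
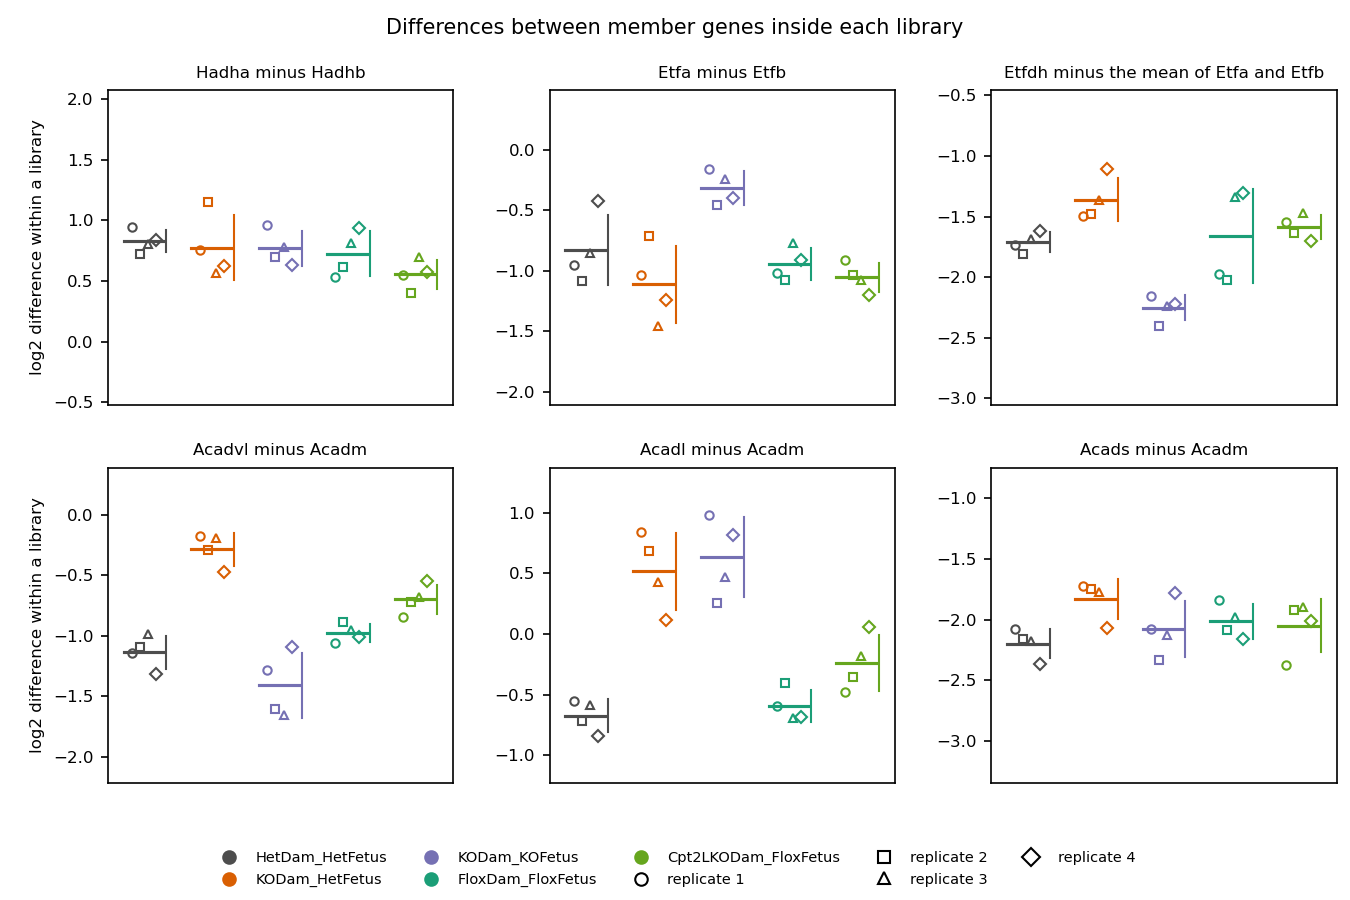
Differences between log2 values of member genes inside each library, by group; the symbols are replicates, the bars group means and the vertical lines the mean plus and minus the SD (n = 4). Acadl minus Acadm is higher in all 8 livers from Ppara knockout dams than in any of the 8 from the control groups, and Hadha minus Hadhb overlaps between the 3 groups of the Ppara arm.

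In the Cpt2 arm Acadvl was at 6.19, 6.29, 6.66 and 6.54 in FloxDam_FloxFetus and 6.48, 6.51, 6.64 and 6.64 in Cpt2LKODam_FloxFetus. Acadl was at 6.66, 6.77, 6.92 and 6.86 in FloxDam_FloxFetus and 6.85, 6.87, 7.13 and 7.24 in Cpt2LKODam_FloxFetus. The groups overlapped for every member, where 6.12% of all genes tested had groups without overlap. The members' differences ran from -0.17 (Acads) to 0.22 (Acadl), and 0 of 10 were called by limma, where 0% of 11805 genes were called. At an unadjusted p under 0.05 there were 0 members and 1311 genes. The 95% intervals bound a change of Acadl at -0.01 to 0.45, of Acadvl at -0.15 to 0.44 and of Acadm at -0.52 to 0.25. Inside libraries, Acadvl minus Acadm was -0.98 ± 0.07 in FloxDam_FloxFetus and -0.70 ± 0.12 in Cpt2LKODam_FloxFetus, without overlap (exact permutation p = 0.0286, adjusted p = 0.0686). Acadl minus Acadm was -0.60 ± 0.13 and -0.24 ± 0.23, with overlap, and was highest in Cpt2LKODam_FloxFetus replicate 4 (0.06).

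The effects of the maternal genotypes were compared directly as the Ppara effect minus the Cpt2 effect. None of the 10 members differed by limma, where 0% of 11798 genes were called, and 1 member and 2343 genes had an unadjusted p under 0.05. That member was Acadl (0.39 ± 0.16, adjusted p = 0.182), and Acadm was at -0.44 ± 0.26 (adjusted p = 0.342). Between the control groups, HetDam_HetFetus minus FloxDam_FloxFetus, 0 members were called, where 0.136% of 11800 genes were (0.0593% higher and 0.0763% lower), and the members ran from -0.18 to 0.15.

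Over the 20 libraries, deviations from the group mean of the 45 pairs of members correlated at Pearson r from 0.03 to 0.91, with a median of 0.56 and none below 0. Hadha and Hadhb correlated at r = 0.637 (permutation p = 0.00234, adjusted over 2 relations 0.00468) and Spearman rho = 0.642 (p = 0.00258, adjusted 0.00516), and at r = 0.522 without the 2 livers farthest from the median of Hadha. Hadhb was 925th of 11633 genes in likeness to Hadha. Etfa and Etfb correlated at r = 0.132 (permutation p = 0.581) and rho = 0 (p = 0.998), and at -0.07 without the 2 farthest livers. Presumed littermates share a dam, so the 20 deviations are not fully independent. As a description over 20 libraries, the genes most like Acadvl were Hsd17b4, a peroxisomal beta-oxidation enzyme (r = 0.927), 4833439L19Rik (0.921) and the protease gene Furin (0.917), with Hadhb eighth. Those most like Hadha were Sdha, a subunit of succinate dehydrogenase (0.913), Tm9sf4 (0.912) and the peptidase gene Erap1 (0.895). The points share libraries, litters and the authors' normalization.

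The other genes of mitochondrial fatty acid oxidation, 15 of 16 tested, included 6 that fell and 0 that rose in the fetal comparison, with a median of -0.70, and 3 fell when only the groups compared were fitted. Slc25a20, the carnitine-acylcarnitine carrier, fell by 1.73 ± 0.16, Cpt1a, which forms acylcarnitines at the outer membrane, fell by 2.31 ± 0.41, Decr1, which handles unsaturated chains, fell by 1.17 ± 0.17, and the thioesterase gene Acot2 fell by 2.14 ± 0.38. Eci2 and Cpt2 were the remaining calls, and that of Cpt2 (adjusted p = 0.0465) was kept in 9 of 33 alternatives. Other matrix enzymes of the cycle were not called: Acaa2, the matrix thiolase, was at -0.52 ± 0.14 (adjusted p = 0.157) and Echs1, the matrix hydratase, at 0.15 ± 0.14 (adjusted p = 0.715). Peroxisomal beta-oxidation had 7 of 11 lower and 0 higher, with a median of -1.71. Ehhadh, the peroxisomal bifunctional enzyme, fell by 4.63 ± 0.26, the thiolase gene Acaa1b fell by 4.46 ± 0.29, Ech1 fell by 2.05 ± 0.13 and Decr2 fell by 1.98 ± 0.22.

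Genes that feed or serve the same electron route without acting on straight-chain fatty acids, such as Ivd, Gcdh and Dmgdh, and the riboflavin and cofactor genes Rfk, Flad1 and Slc25a32, had 0 of 11 called in the fetal comparison and a median of 0.06. The citric acid cycle had 0 of 17 called and a median of -0.03. At an unadjusted p under 0.05 all 10 members passed in this comparison, among 1287 genes. With the maternal genotype the flavoprotein-route list had 2 higher (Slc25a32 at 0.85 and Rfk at 0.37) and 5 lower, among them Flad1, which makes FAD (-1.05), the branched-chain dehydrogenase gene Acadsb (-0.78) and Dmgdh (-0.67), with a median of -0.52. Without the littermate pair that list had 2 higher and 2 lower, and with single libraries left out it had 3 to 8 calls, 3 without HetDam_HetFetus replicate 4 and 4 without its replicate 1 or without KODam_HetFetus replicate 1 or 2. The citric acid cycle had 2 lower in the maternal comparison, Ogdh (-1.02) and Fh1 (-0.61), but 6 with trimmed-mean scaling, 5 with quantile normalization of the tested genes and 5 without KODam_HetFetus replicate 4. Other mitochondrial fatty acid oxidation genes split into 2 higher (Acot2 at 3.01 and Slc25a20 at 0.65) and 3 lower (Acad11 at -1.24, Hsd17b10 at -0.55 and Eci1 at -0.40), with 1 lower when litter was a random block or when KODam_HetFetus replicate 1 or 2 was left out. Peroxisomal genes split likewise into Ehhadh (3.45) and Acaa1b (1.67) higher and Acox2 (-1.69) and Decr2 (-0.87) lower. Of the 12 hepatocyte markers 1 rose and 2 fell with the maternal genotype. In all, 10 of them lay below 0, with a median of -0.30 against 0.14 over all genes tested. Of 7 neutrophil and myeloid markers 5 fell. The myeloid markers summed on the linear scale to 2999 to 5104 in KODam_HetFetus and 5129 to 7897 in HetDam_HetFetus. The part of either cell type in the members' values was not tested.

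**Figure D4:**
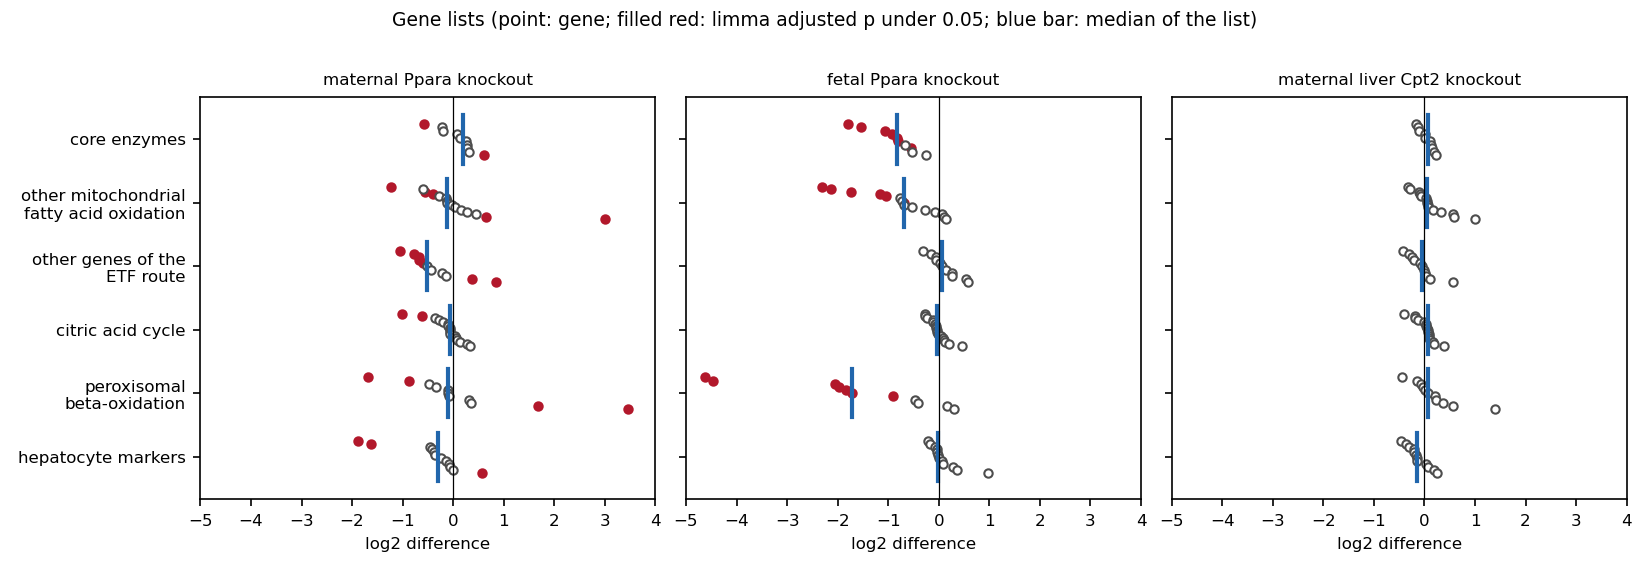
Log2 differences of single genes by list in 3 comparisons; filled red points had a limma adjusted p under 0.05, open points did not, and the blue bars are list medians. For the fetal knockout the core enzymes, the other mitochondrial genes and the peroxisomal genes have medians of -0.82, -0.70 and -1.71, and the electron transfer flavoprotein (ETF) route, the citric acid cycle and the hepatocyte markers lie near 0.

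In the comparison of doubly knockout with control livers 11 of 15 other mitochondrial fatty acid oxidation genes were lower, with a median of -0.65, among them Decr1 (-1.45), Acad11 (-1.96), Slc25a20 (-1.08) and Cpt1a (-1.86). That count was 7 without KODam_KOFetus replicate 3 and 6 without replicate 4. Acaa2 was among the calls (-0.65 ± 0.14, adjusted p = 0.00416) and Echs1 was at 0.03. The flavoprotein route had 3 of 11 lower (Flad1, Dmgdh and Lyrm5, also named Etfrf1), the citric acid cycle 1 of 17 (Fh1), and peroxisomal beta-oxidation 9 of 11. The flavoprotein count was 1 with litter as a random block, with sex as a covariate, with no filter, with no variance trend, and without HetDam_HetFetus replicate 1, 3 or 4, KODam_KOFetus replicate 1, 3 or 4, or Cpt2LKODam_FloxFetus replicate 3. The citric acid cycle count was 8 with trimmed-mean scaling, 3 with quantile normalization of the tested genes, 2 with only the groups compared, and 2 without HetDam_HetFetus replicate 2 or Cpt2LKODam_FloxFetus replicate 4. It was 0 without HetDam_HetFetus replicate 4 or KODam_KOFetus replicate 4. For the maternal liver Cpt2 knockout 0 genes of these 4 lists were called, and their medians lay between -0.04 and 0.08.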

How the data were processed

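The 20 livers, 4 per group, were grouped by the genotype labels. Trizol and a column were used for the RNA and stranded mRNA libraries were sequenced, per the labels' protocols. The tools were Partek 7.0 and bcl2fastq 2.17.1.14 and the build GRCm38.p6, per the submitters' processing notes. The deposited values are on a log scale, taken as log2 from their size, and had been quantile normalized by the authors. For the aligner, the counting rule, the use of strand and the depth the sources used here give nothing, so no interval for counting error can be given. No label says how separate the dams were beyond the presumed litters, so p-values measure the spread between these livers. The main limma fit counted presumed littermates as separate livers. The correlation within presumed litters, estimated over genes with no blank, was 0.57. Groups with littermates therefore hold fewer independent units than livers, and their SEs and p-values take no account of this.

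Testing required a linear value of at least 1 in at least 4 libraries (11807 of 45802). limma 3.58.1 in R 4.3.3 fitted all 20 libraries with a mean per group (eBayes with a trend), two-sided, with Benjamini-Hochberg adjustment over all genes of each of 6 comparisons and calls at an adjusted p under 0.05. A gene whose groups do not overlap has all livers of one group above all of the other. On simulated data for the fetal comparison (11634 genes), 14% of genes changed by 0.5, 64% by 1 and 98% by 2 log2 units were recovered, with 6 false calls. The simulated libraries were drawn independently and held no litters, unlike the livers here. Exact permutation and correlation tests used SciPy 1.17.1, the latter with 100000 resamples. Similar transcripts were found with BLAST 2.17.0. Named genes were the members, Ppara, Cpt2, up to 4 called genes of each list by smallest p, Echs1, Acaa2, Cpt1a, Ehhadh and a further gene that is not reported here, and the 3 genes most like Acadvl and Hadha; other called genes named to account for a count were named after their values were seen. The members and lists were chosen with earlier results of these data known. Alternatives covered blocks, sex, scaling, pseudocounts of 0.1 and 4, filters, the variance trend and left-out libraries.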

Additional observations from a re-analysis of the deposited data

Results flagged for a closer look

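In 5 of the 50 sets of 4 livers (10 genes in 5 groups) one liver stood apart from the other 3 by Dixon's criterion, where chance gives about 1 in 20. Acads was low in HetDam_HetFetus replicate 2 (5.22, others 5.38 to 5.40), and Hadha was low in KODam_KOFetus replicate 4 (5.25, others 5.41 to 5.42). The remaining cases were all in Etfb: HetDam_HetFetus replicate 4 was low (7.51, others 7.81 to 7.85), KODam_KOFetus replicate 2 was high (6.998, others 6.67 to 6.71) and Cpt2LKODam_FloxFetus replicate 1 was low (7.93, others 8.08 to 8.11). The first and second of these Etfb livers are the libraries with skeletal muscle markers, and Etfb was called lower in the fetal comparison in all 33 alternatives, which include leaving them out.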

How the results depend on the processing

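Of 1386 values of single members under 33 alternatives each, 1340 kept their direction and their side of the threshold. Many alternatives could not change a direction. A member's log2 difference stays the same when a library outside the compared groups is left out. It also stays the same when only the filter, the variance trend or the groups fitted are changed. The tally is therefore not a measure of how firm the directions are. Members called in the maternal comparison (2 in the report) numbered 1 with litter as a random block, 4 with trimmed-mean scaling, 5 without the littermate pair, 1 without the libraries with markers of another tissue (an alternative chosen after seeing the data) and 1 to 3 with a replicate left out. In the fetal comparison (7) they numbered 4 with only its groups and 6 to 7 with a replicate left out, and in the comparison of doubly knockout with control livers (8) 8 to 9. The cause was not tested. Directions that reversed were all of values not called: Etfb, maternal, at -0.0574 with trimmed-mean scaling, -0.0133 without the other-tissue libraries and -0.0481 to 0.19 with a replicate left out; Acadl, doubly knockout against control, at -0.0554 with trimmed-mean scaling and -0.00776 to 0.0982 with a replicate left out; Acads, maternal, at 0.0388 without the pair; Hadha, Cpt2, at -0.0880 to 0.108 and Etfa, Cpt2, at -0.0215 to 0.0404 with a replicate left out, the latter also at -0.0215 without the other-tissue libraries. The correlation of Etfa with Etfb was -0.103 without the pair. Genes called in the fetal comparison (97) numbered 63 with only its groups and 75 to 147 with a replicate left out (147 without KODam_KOFetus replicate 3), in the maternal one (4600) 2845 without the pair and 3536 to 4643, and in the doubly knockout one (2916) 1828 (without KODam_KOFetus replicate 4) to 3024. For Cpt2 (0) it was 1 with quantile normalization of the tested genes and 0 to 1 with a replicate left out, and for the difference of the maternal effects (0) it was 2 with a pseudocount of 4, 1 without the pair and 0 to 421 (421 without Cpt2LKODam_FloxFetus replicate 4). Between the control groups (16) it was 8 with litter, 7 with a pseudocount of 4, 5 with a minimum of 4, 26 without the trend, 10 without the other-tissue libraries and 8 to 35 (35 without HetDam_HetFetus replicate 1). Replicate numbers did not pair the livers: deviations of same-numbered livers correlated at -0.378 to 0.476, with 17 of 40 pairs over 0.1 and 4 of 20 livers closest to their own number. With the replicate block the members called numbered 2, 7, 9, 0, 0 and 0 in the 6 comparisons, Hadh being added in the doubly knockout one (adjusted p = 0.0336).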
